A study of Ovis aries with 9 samples.

Results

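The genes described here are 9 protein-coding genes of 2 signalling systems that act through extracellular ATP and through the lipid sphingosine-1-phosphate (S1P): the ionotropic purine receptor subunits P2RX2, P2RX3, P2RX4, P2RX5, P2RX6 and P2RX7, the sphingosine kinases SPHK1 and SPHK2, and the S1P receptor S1PR1. They were chosen by their RefSeq symbol, and every messenger RNA row of these symbols was taken, which gave 39 transcripts of the 76684 mRNA transcripts in the table (9 of 21284 genes). RNA came from hypothalamus of Dolang sheep, a breed of Xinjiang, and the 9 ewes fell into 3 stages of 3 animals each, which were prepuberty (aged 120 days), puberty (aged 130 days) and postpuberty (aged 150 days). Each library is 1 ewe, named here by stage and replicate number, and the stage was judged from oestrous behaviour and the vulva. All ewes were kept alike and killed with pentobarbital sodium, and no treatment separates the groups. Age rises with stage, so age and stage cannot be told apart. Values are FPKM (read fragments of a transcript, scaled for transcript length and for how many fragments the library had), which are per length and can be set side by side between genes. The level of a gene is the sum of the FPKM of its transcripts, called the gene sum.

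P2X receptors are cation channels opened by extracellular ATP. Each channel is a trimer of subunits, of the same kind or mixed, and opening lets in sodium and calcium. In brain tissue they occur on neurons and on glia. Sphingosine kinases phosphorylate sphingosine to S1P, which acts inside the cell and, once exported, on the G-protein-coupled receptors S1PR1 to S1PR5. S1PR1 is known for the barrier of blood vessels and for the exit of lymphocytes from lymphoid organs, and in brain it is also made by astrocytes.

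Library Puberty 2 stood apart from the others. Its FPKM summed to 599726 against 359588 to 398109 in the other 8 libraries, and 42441 of its rows were above 0 against 67824 to 71787. Of the 39 transcripts of the 9 genes, 19 were listed at 0 in Puberty 2 against 6 to 8 in the other libraries, so results are given with and without it. Among the markers of the tissue, SST ranged from 4.27 to 107 FPKM and POMC from 2.09 to 22.4, whereas GNRH1 was listed at 0 in all 9 libraries and KISS1 (at most 0.36) and AGRP (at most 0.169) were close to 0. CRH ranged from 0.392 to 118 FPKM. The means of TRH, NPY, AVP, OXT, HCRT and PMCH were 10.8, 7.08, 2.47, 1.40, 0.667 and 0.222 FPKM. Of these 12 neuropeptides, 5 had a mean below 1 FPKM. The pituitary hormone PRL ranged from 0.0562 FPKM in Prepuberty 2 to 200 in Postpuberty 1, and TTR, a gene of the choroid plexus, from 9.07 in Prepuberty 2 to 7594 in Puberty 3. The part of these differences in the results below was not tested, and in bulk RNA fewer cells of a type and less RNA per cell cannot be told apart.

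S1PR1 was the most abundant of the 9 genes and P2RX4 and P2RX5 were the most abundant P2X subunits. Over the 9 libraries the gene sum of S1PR1 was 43.4 ± 12.4 FPKM (SD, n = 9), followed by SPHK2 (13.9 ± 7.55), P2RX5 (11.3 ± 7.87), P2RX4 (10.8 ± 2.08), P2RX6 (5.88 ± 1.79), SPHK1 (2.48 ± 2.06), P2RX7 (1.57 ± 0.682), P2RX2 (0.186 ± 0.165) and P2RX3 (0.0909 ± 0.0969). Neighbours in this order were compared within libraries by a two-sided exact sign-flip permutation test of the log2 ratio of (gene sum + 0.1), adjusted over the 8 pairs. S1PR1 lay above SPHK2 in 8 of 9 libraries (exact permutation test, adjusted p = 0.0156). P2RX4 lay above P2RX6 in 8 of 9, P2RX6 above SPHK1 in 8 of 9 and P2RX7 above P2RX2 in 9 of 9, each with the same adjusted p in this exact test. The other 4 pairs of neighbours did not differ beyond their spread: SPHK2 and P2RX5, P2RX5 and P2RX4, SPHK1 and P2RX7, and P2RX2 and P2RX3 (adjusted p of 0.163 to 0.457 in the exact permutation test). Without Puberty 2 the mean of SPHK2 fell below that of P2RX5 (11.5 ± 1.92 against 12.6 ± 7.45 FPKM, n = 8), and the 4 pairs that passed were the same.

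**Figure D1:**
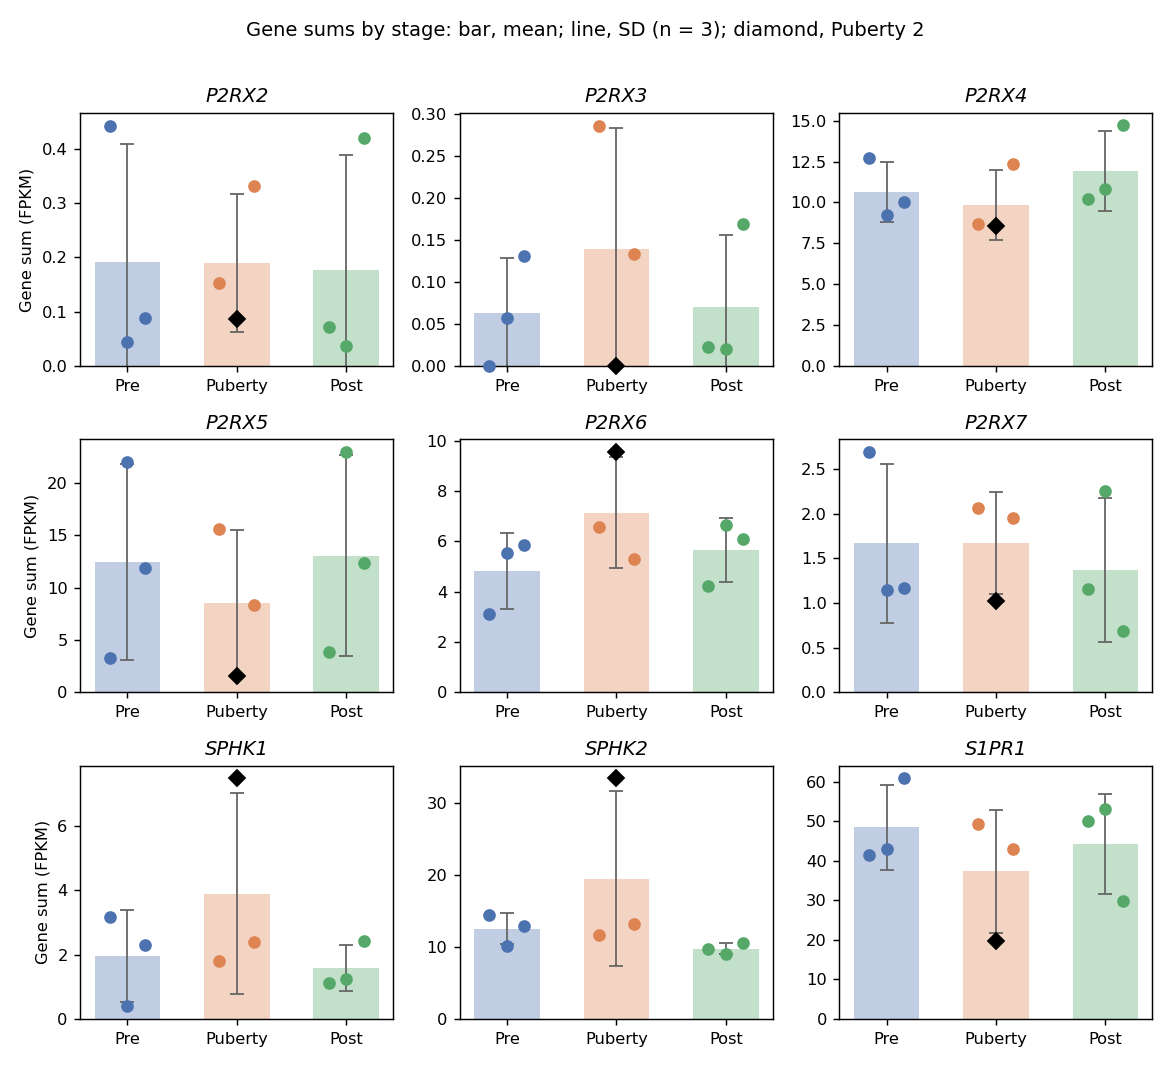
Gene sum in FPKM (vertical axis, a separate scale in each panel) of the 9 genes at prepuberty (Pre), puberty and postpuberty (Post); points are libraries, bars are means of 3 libraries with the SD, and the black diamond is Puberty 2. Puberty 2 was the lowest library for P2RX4, P2RX5 and S1PR1 and the highest for P2RX6, SPHK1 and SPHK2, and the 3 stages overlapped in every panel other than SPHK2, where puberty lay above postpuberty.

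P2RX4 codes for a subunit with high calcium permeability that is known from microglia and neurons. Its gene lies on chromosome 17 at 53960985-53977561 of ARS-UI_Ramb_v3.0, 25947 bases from the start of P2RX7. The gene sum was 12.7, 9.21 and 10.0 FPKM in Prepuberty 1 to 3, 8.66, 8.56 and 12.3 in Puberty 1 to 3, and 10.2, 10.8 and 14.7 in Postpuberty 1 to 3. The libraries lay within a narrow range, with the highest and the lowest of the 8 libraries other than Puberty 2 only 1.70 times apart, and Puberty 2 differed little from Puberty 1. One transcript, XM_004017580.6, made up 97.1 ± 2.16% of the gene sum (SD, n = 9) and led in 9 of 9 libraries, so that for P2RX4 the single isoform and the gene sum give nearly the same values.

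P2RX5 codes for a subunit that can form mixed channels with P2X1. The gene lies on chromosome 11 at 24248950-24264753, and P2RX1, which is not among the 9 genes, starts 142225 bases after it. The gene sum was 3.32, 22.1 and 11.9 FPKM at prepuberty, 15.6, 1.61 and 8.33 at puberty and 3.83, 23.0 and 12.4 at postpuberty, in the order of the replicate numbers. Low and high libraries occurred in every stage. The highest of the 8 libraries other than Puberty 2 was 6.92 times the lowest, against 1.70 times for P2RX4. XM_012185505.4 led in 8 of 9 libraries with 60.1 ± 25.9% of the gene sum. It was listed at 0 in Puberty 2, where XM_042255538.1 supplied 1.27 of the 1.61 FPKM and the other transcripts together 0.334, against 3.09 to 22.1 FPKM in the other libraries.

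P2RX6 codes for a subunit that works mainly in mixed channels with other P2X subunits. The gene lies on chromosome 17 at 72395280-72404519. Its sum was 3.10, 5.53 and 5.85 FPKM at prepuberty, 6.57, 9.57 and 5.29 at puberty and 4.23, 6.65 and 6.11 at postpuberty. The highest value was that of Puberty 2. XM_015101754.3 led in 9 of 9 libraries with 60.9 ± 12.3% of the sum, and the other 3 transcripts, XM_027956894.2, XM_027956893.2 and XM_027956895.2, held 21.3%, 13.2% and 4.61%.

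P2RX7 codes for a subunit that needs high ATP to open and is known from microglia and from inflammasome activation. Its gene lies on chromosome 17 at 54003509-54061335. The gene sum was 2.70, 1.14 and 1.16 FPKM at prepuberty, 2.06, 1.02 and 1.95 at puberty and 1.16, 2.26 and 0.688 at postpuberty. Its 2 transcripts alternated between libraries. XM_042234061.2 reached 1.86 FPKM in Prepuberty 1 and 1.23 in Puberty 3, in both of which it exceeded XM_027956495.3, and it was at most 0.0317 in the other 7 libraries. XM_027956495.3 ranged from 0.688 to 2.26 FPKM and made up 85.0 ± 29.0% of the sum.

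P2RX2 and P2RX3, subunits best known from sensory neurons, had the lowest levels of the 9 genes. P2RX2 (chromosome 17, 44627027-44630578, 5 transcripts) ranged from 0.0366 FPKM in Postpuberty 2 to 0.442 in Prepuberty 1. P2RX3 (chromosome 15, 79369882-79407113, 1 transcript) was listed at 0 in Prepuberty 1 and Puberty 2 and reached at most 0.286, in Puberty 1. P2RX1, the remaining subunit of the family, was as low, at 0.188 ± 0.205 FPKM (n = 9). FPKM holds no read counts, so no counting interval or detection limit was attached to these low values.

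The makeup of the P2X transcripts was carried by 3 subunits. P2RX4, P2RX5 and P2RX6 together made up 85.9% to 96.7% of the summed P2X FPKM, which ranged from 19.5 in Postpuberty 1 to 42.8 in Postpuberty 2. P2RX4 held 38.5 ± 11.9% of the sum, P2RX5 34.1 ± 17.5%, P2RX6 20.9 ± 9.76%, P2RX7 5.59 ± 2.90%, P2RX2 0.680 ± 0.639% and P2RX3 0.286 ± 0.296% (SD, n = 9). P2RX4 led in 4 libraries (Prepuberty 1, Puberty 3, Postpuberty 1 and Postpuberty 3) and P2RX5 in another 4 (Prepuberty 2, Prepuberty 3, Puberty 1 and Postpuberty 2), so neither of them was the dominant subunit of all libraries or of any stage. P2RX6 led in Puberty 2 alone, with 45.9% against 13.9% to 21.6% in the other 8 libraries. Its mean share at puberty was 28.1%, against 16.2% at prepuberty and 18.3% at postpuberty, and the puberty mean includes the 45.9% of Puberty 2 beside the 19.7% of Puberty 1 and the 18.6% of Puberty 3. Without Puberty 2 the shares of P2RX4 and P2RX5 were 38.2 ± 12.7% and 37.4 ± 15.5% (n = 8).

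**Figure D2:**
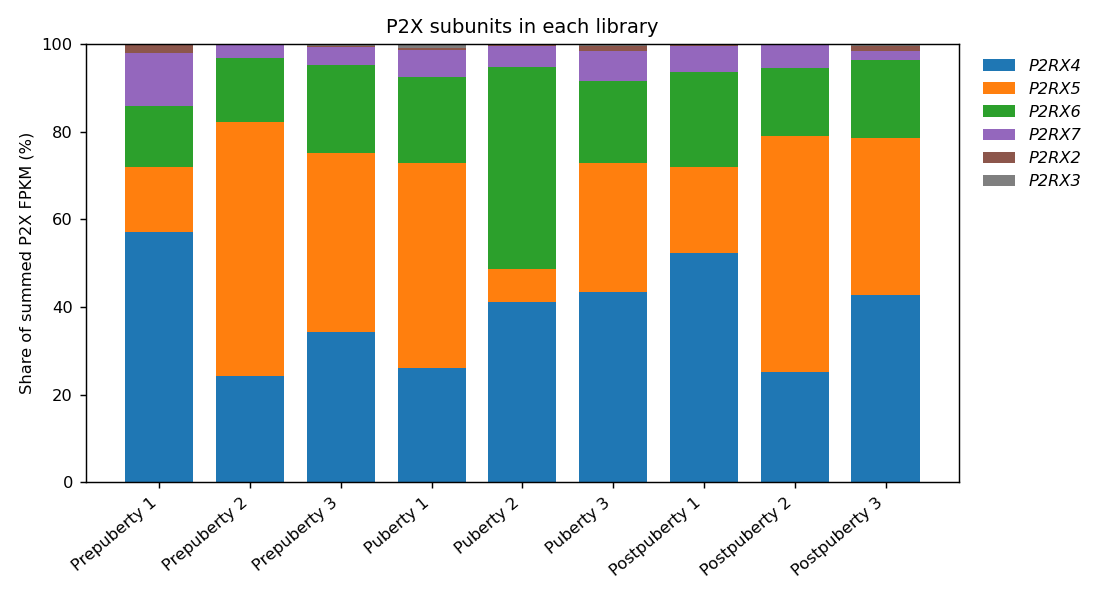
Share of each P2X subunit in the summed P2X FPKM of a library (vertical axis, percent) in the 9 libraries (horizontal axis). P2RX4 and P2RX5 exchange the leading place from library to library, with P2RX4 between 24.2% and 57.0% and P2RX5 between 7.71% and 58.0%, and P2RX6 leads in Puberty 2 only.

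SPHK1, the kinase of cytosol and plasma membrane, was much lower than SPHK2, the kinase of nucleus, endoplasmic reticulum and mitochondria. SPHK1 (chromosome 11, 54691581-54696823) gave 3.18, 0.395 and 2.31 FPKM at prepuberty, 1.80, 7.49 and 2.39 at puberty and 1.11, 1.24 and 2.42 at postpuberty. No transcript of SPHK1 was the leading one throughout. XM_027974124.3 led in 4 of 9 libraries with a mean share of 37.8 ± 11.8%, and in Puberty 2 XM_027974127.3 supplied 6.18 of the 7.49 FPKM, against at most 1.06 FPKM elsewhere.

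SPHK2 (chromosome 14, 55017857-55025748) had 12 transcripts, the most of the 9 genes. Its sum was 14.5, 10.2 and 12.9 FPKM at prepuberty, 11.7, 33.5 and 13.2 at puberty and 9.74, 8.98 and 10.6 at postpuberty. Puberty 2 lay far above the other libraries, and the other 8 were within a factor of 1.61. The excess was a single transcript, XM_027978567.3, with 2.38, 0.951 and 2.60 FPKM at prepuberty, 3.55, 29.8 and 3.69 at puberty and 2.05, 1.20 and 1.502 at postpuberty. The other 11 transcripts together gave 3.66 FPKM in Puberty 2 against 7.69 to 12.1 in the other libraries, so that Puberty 2 was the highest library by gene sum and the lowest once this transcript was taken out. In the 9 libraries 3 different transcripts took the lead, and the share of XM_027978567.3 was 26.9 ± 24.3%, the highest on average. Without Puberty 2 it was 19.1 ± 7.26% (n = 8), below XM_027978561.2 (22.7 ± 9.60%) and XM_027978568.3 (20.9 ± 6.04%).

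S1PR1 (chromosome 1, 78587178-78591864) gave 41.5, 43.0 and 61.0 FPKM at prepuberty, 49.4, 19.8 and 43.0 at puberty and 49.99, 53.1 and 29.7 at postpuberty. Puberty 2 was the lowest library and Postpuberty 3 the next. XM_004002241.6 made up 98.5 ± 0.665% of the sum and led in 9 of 9 libraries, so S1PR1, like P2RX4, is in effect a gene of 1 measured isoform here.

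**Figure D3:**
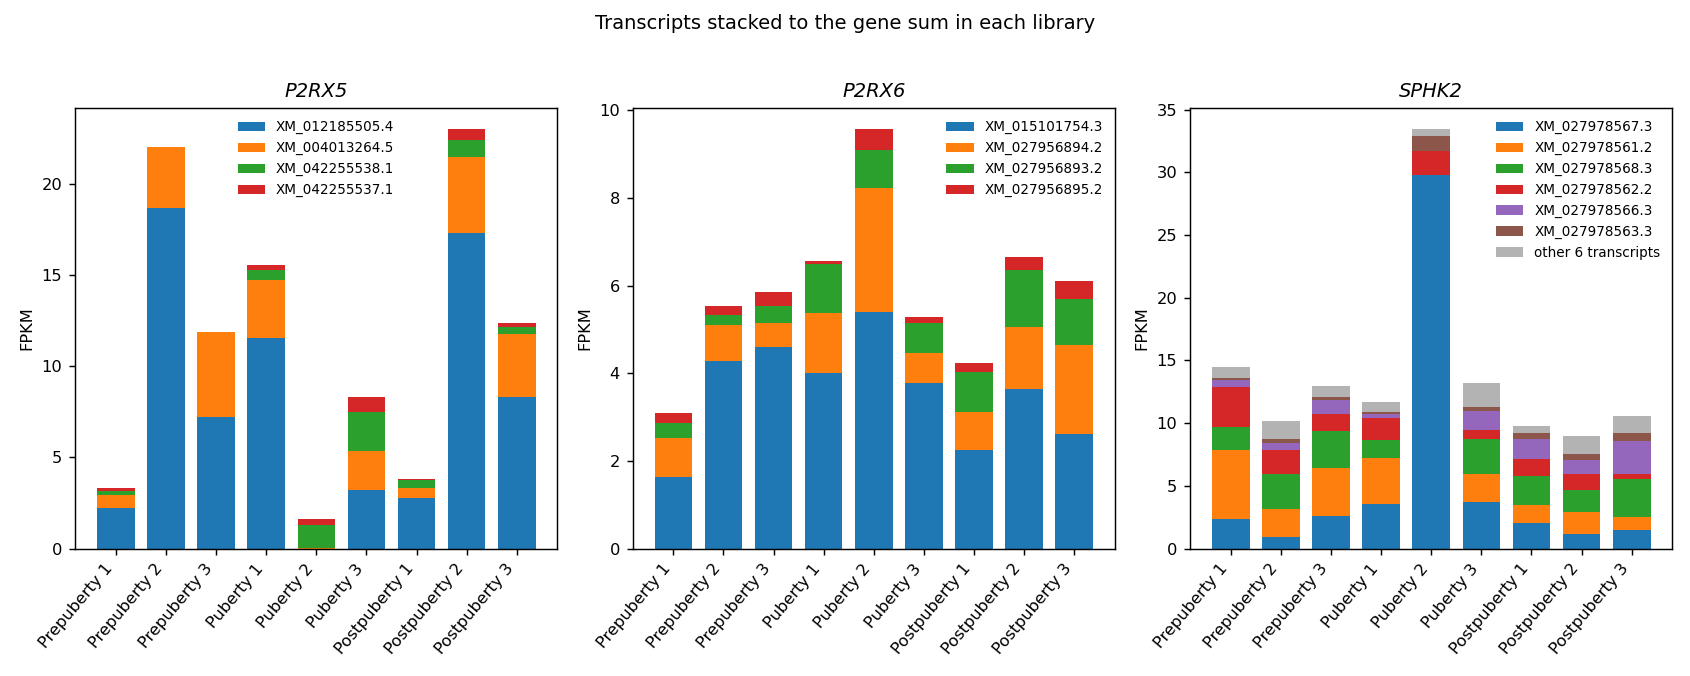
Transcripts of P2RX5, P2RX6 and SPHK2 stacked to the gene sum (vertical axis, FPKM) in the 9 libraries (horizontal axis); for SPHK2 the 6 transcripts with the highest means are drawn apart and the other 6 together. In Puberty 2 the leading P2RX5 transcript is missing from the bar and 1 SPHK2 transcript, XM_027978567.3, fills 29.8 of 33.5 FPKM.

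Of the 39 transcripts, 20 reached a mean of 0.5 FPKM in at least 1 stage, and the other 19 stayed below it in every stage, 2 of them at 0 in all 9 libraries. The coefficient of variation (SD as a percentage of the mean) is given for sums and single transcripts as a description, since a sum tends to vary less than its parts by arithmetic and the reads of a gene are divided among its isoforms. For SPHK2 the gene sum varied by 16.7% over the 8 libraries, and its 7 transcripts above the filter by 26.0% to 134%, the highest being XM_042232272.2, which was at 0 in 5 of the 9 libraries. Including Puberty 2 raised the variation of the SPHK2 sum to 54.2%. P2RX6 varied by 22.4% as a gene sum over 8 libraries and by 31.6% to 54.0% as single transcripts. Of the 20 transcripts, 18 varied more than their gene sum over 8 libraries and 14 over 9. Over 8 libraries 1 transcript of P2RX5 (54.7% against 59.4%) and 1 of S1PR1 (19.7% against 20.1%) varied less.

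For the comparison of stages, limma was fitted to log2(FPKM + 1) in all 9 libraries, once for the 14238 genes and once for the 27675 mRNA transcripts with a mean of 0.5 FPKM or more in any stage. Calls needed a log2 difference of 1 or more in either direction and a Benjamini-Hochberg adjusted p below 0.05 over all features of the fit. P2RX2 and P2RX3 did not reach 0.5 FPKM in any stage, so 7 of the 9 genes were tested. None of the 9 genes was shown to rise or fall between any 2 stages. Limma called 0 of 7 genes and 0 of 20 transcripts from prepuberty to puberty, from puberty to postpuberty and from prepuberty to postpuberty, and it called 0% of all genes and 0% of all transcripts tested in each. At an unadjusted p below 0.05 there were 0 of the 7 genes in each comparison, where limma gave 1.82%, 2.14% and 0.815% of all genes. Of the 20 transcripts, 2, 1 and 1 were below it in the same order, where limma gave 3.1%, 3.44% and 1.72% of all transcripts.

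From prepuberty to puberty the limma difference of the gene sum, on the log2(FPKM + 1) scale, was 0.69 for SPHK1 (95% interval -0.49 to 1.87), 0.49 for P2RX6 (-0.24 to 1.21), 0.46 for SPHK2 (-0.39 to 1.30) and 0.03 for P2RX7 (-0.74 to 0.80). It was -0.11 for P2RX4 (-0.69 to 0.48), -0.44 for S1PR1 (-1.31 to 0.43) and -0.56 for P2RX5 (-2.50 to 1.38). Adjusted p-values in limma were 0.838 or higher for all 7. The median difference of the 7 genes was 0.03, and that of all 14238 genes was -0.14. Without Puberty 2, 6 of the 7 differences were closer to 0. They were then 0.20 for SPHK1, 0.28 for P2RX6, 0.00 for SPHK2, -0.05 for S1PR1, -0.02 for P2RX4 and 0.19 for P2RX5, which changed sign. The sign changed on the log scale alone for P2RX5, whose mean was 12.4 FPKM at prepuberty and, without Puberty 2, still lower at puberty, at 11.95. P2RX7 was farther from 0, at 0.22, and the median of all genes was 0.02.

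From puberty to postpuberty the difference was -0.77 for SPHK2 (95% interval -1.62 to 0.07; adjusted p = 0.78), -0.77 for SPHK1 (-1.95 to 0.41), -0.28 for P2RX6 (-1.0 to 0.45) and -0.21 for P2RX7 (-0.98 to 0.56). P2RX5 (0.65, from -1.29 to 2.59), S1PR1 (0.29, from -0.58 to 1.16) and P2RX4 (0.25, from -0.33 to 0.84) had positive values. The median of all genes was 0.19. Without Puberty 2 the values were -0.32 for SPHK2 (-0.74 to 0.10), -0.28 for SPHK1, -0.07 for P2RX6, -0.10 for both P2RX5 and S1PR1, which changed sign, 0.17 for P2RX4, and -0.40 for P2RX7, which moved away from 0 and was then the largest of the 7, beside a median of 0.03 for all genes. The mean FPKM of P2RX5 kept its direction here too (13.1 at postpuberty), whereas that of S1PR1 at puberty went from 37.4 to 46.2, against 44.3 at postpuberty. SPHK2 was the only gene of the 7 whose libraries did not overlap between stages: 11.7 to 33.5 FPKM at puberty lay above 8.98 to 10.6 at postpuberty. Of all genes tested, 2.07% were separated in this direction (6.08% when Puberty 2 was left out) and 5.25% in the other, in which 0 of the 7 were. In the other comparisons 0 of the 7 genes separated in either direction, where from prepuberty to puberty 2.32% of all genes were higher and 2.84% lower, and from prepuberty to postpuberty 3.17% were higher and 1.4% lower. With 3 ewes against 3 the exact two-sided permutation test of a single gene cannot go below p = 0.1.

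From prepuberty to postpuberty, the comparison that Puberty 2 does not enter other than through the shared estimate of spread, the differences ran from -0.32 for SPHK2 (95% interval -1.16 to 0.53) to 0.21 for P2RX6 (-0.51 to 0.93), with adjusted p = 1 in limma for all 7. The interval was narrowest for P2RX4, at 0.15 (-0.44 to 0.73), and widest for P2RX5, at 0.09 (-1.85 to 2.03). A difference of 1 on this scale lay inside the interval of P2RX5, SPHK1, SPHK2 and S1PR1 in at least 1 direction, and outside that of P2RX4, P2RX6 and P2RX7. Without Puberty 2 it lay outside the intervals of SPHK2 (-0.70 to 0.06) and S1PR1 (-0.75 to 0.45) as well. For P2RX2 and P2RX3, fitted with no filter, all 3 differences lay between -0.09 and 0.10. The pseudocount of 1 keeps differences between such low values near 0, so they do not show that the levels were stable. For P2RX3, means of 0.0627 FPKM at prepuberty and 0.140 at puberty gave 0.0952.

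**Figure D4:**
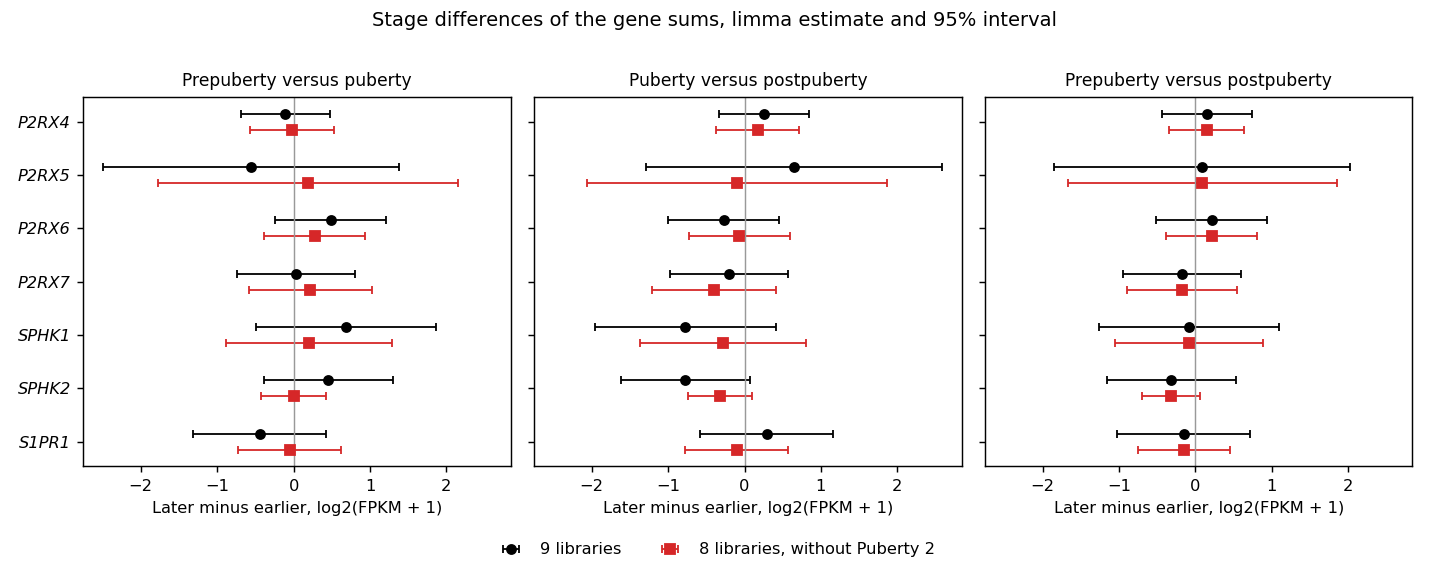
Difference of the gene sum between stages (horizontal axis, later minus earlier stage, log2(FPKM + 1)) for the 7 genes tested, as the limma estimate with its 95% interval, with 9 libraries (black) and without Puberty 2 (red). Every interval crosses 0, and the estimates of SPHK1, SPHK2, P2RX5 and S1PR1 in the 2 comparisons with puberty move towards 0 without Puberty 2.

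Some single transcripts separated the stages where their gene sums overlapped, and none of them passed the test. The P2RX6 transcript XM_027956893.2 was 0.342, 0.216 and 0.384 FPKM at prepuberty, 1.10, 0.859 and 0.676 at puberty and 0.932, 1.31 and 1.04 at postpuberty. Every prepuberty library lay below every library of the later stages, Puberty 2 included. The limma difference was 0.51 (SE 0.26, adjusted p = 0.831) from prepuberty to puberty and 0.67 (SE 0.26, adjusted p = 1) from prepuberty to postpuberty, so it did not pass. Its share of the gene sum was 11.04%, 3.90% and 6.56% at prepuberty, 16.8%, 8.98% and 12.8% at puberty and 22.0%, 19.7% and 17.1% at postpuberty. The shares of prepuberty and puberty overlapped, since Puberty 2 lay below Prepuberty 1. The rest of P2RX6, without this transcript, was 2.76 to 5.47 FPKM at prepuberty and 3.30 to 5.33 at postpuberty, which overlapped. The study placed this transcript, and SPHK2 transcript XM_027978563.3, in its calcium signalling network from these same libraries, so their pattern is not independent evidence. For mRNAs of that network the paper describes P2RX6 as high at puberty and postpuberty, and SPHK2 as significantly raised at postpuberty. The gene sums here are another measure. That of SPHK2 averaged 12.5, 19.5 (12.45 without Puberty 2) and 9.77 FPKM in stage order, and that of P2RX6 4.83, 7.14 (5.93) and 5.66.

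SPHK2 transcript XM_027978563.3 was 0.1498, 0.321 and 0.265 FPKM at prepuberty, 0.155, 1.14 and 0.392 at puberty and 0.523, 0.534 and 0.630 at postpuberty. Postpuberty lay above prepuberty in all libraries, and at puberty the value of Puberty 2 exceeded the other 8 libraries. The limma difference from prepuberty to postpuberty was 0.33 (SE 0.28, adjusted p = 1). For 2 other SPHK2 isoforms the values lay the opposite way, with prepuberty above postpuberty in all libraries. XM_027978561.2 was 5.52, 2.23 and 3.85 FPKM at prepuberty and 1.41, 1.74 and 1.03 at postpuberty (difference -0.98, SE 0.55, adjusted p = 1 in limma), and at puberty it was 3.69, listed at 0, and 2.25. Without Puberty 2 its difference had SE 0.31 (unadjusted p = 0.0139 in limma), and it was not called. In that fit 2 of 21 member transcripts had an unadjusted p below 0.05, beside 3.17% of all transcripts. XM_027978562.2 was 1.34 to 3.19 FPKM at prepuberty and 0.433 to 1.29 at postpuberty.

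The SPHK2 transcript that filled Puberty 2, XM_027978567.3, had the largest differences of the 20 transcripts, 1.60 from prepuberty to puberty (SE 0.68, adjusted p = 0.831 in limma) and -1.76 from puberty to postpuberty (SE 0.68, adjusted p = 0.781). Without Puberty 2 they were 0.68 and -0.85 (adjusted p = 1 in limma for both).

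P2RX5 transcript XM_042255538.1 had the smallest unadjusted p of the 20 transcripts in limma with Puberty 2 included, from prepuberty to puberty. Without Puberty 2 that of XM_027956893.2 from prepuberty to postpuberty was smaller (0.0117 against 0.0139 in limma). At prepuberty XM_042255538.1 averaged 0.0789 FPKM and XM_027956893.2 averaged 0.314, both below the minimum of the filter. Both transcripts were tested only through their later stages and had to be higher there, so these p-values support nothing. XM_042255538.1 was 0.235, 0 and 0.0019 FPKM at prepuberty, 0.565, 1.27 and 2.14 at puberty and 0.429, 0.922 and 0.402 at postpuberty. All prepuberty libraries lay below the later ones. The difference from prepuberty to puberty was 1.06 (SE 0.32, adjusted p = 0.831 in limma), and 1.05 without Puberty 2 (adjusted p = 1). This transcript averaged 14.9% of the P2RX5 sum, and 6.85% without Puberty 2.

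Complete separation of stages was counted for the 20 transcripts, beside the same count over all 27675. From prepuberty to puberty 3 were higher at puberty in all libraries (XM_027956893.2 of P2RX6, XM_027978567.3 of SPHK2 and XM_042255538.1 of P2RX5), where 2.64% of all transcripts were, and 0 were lower, where 4.66% were. From puberty to postpuberty 3 were lower in all libraries (XM_015101754.3 of P2RX6, XM_027974127.3 of SPHK1 and XM_027978567.3 of SPHK2), where 2.22% were, and 0 were higher, where 6.26% were. From prepuberty to postpuberty 3 were higher (XM_027956893.2, XM_027978563.3 and XM_042255538.1; 4.23% of all) and 2 were lower (XM_027978561.2 and XM_027978562.2; 2.63% of all). The 3 that were higher at postpuberty averaged 0.314, 0.245 and 0.0789 FPKM at prepuberty, below the minimum of 0.5 FPKM, and passed it only through the later stages, as did XM_027956893.2 and XM_042255538.1 in the first comparison. Such transcripts had to differ, so these counts support nothing. Transcripts of 1 gene also share its reads, so these counts are not of independent features. Without Puberty 2 the first 2 comparisons gave 3 higher and 0 lower, and 1 higher and 4 lower, where 8.7%, 6.55%, 8.73% and 7.69% of all transcripts separated.

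The level of P2RX5 moved with the markers of cell types. Its gene sum followed the summed neuronal markers (7 genes, 255 to 1226 FPKM) with Pearson's r = 0.96 and Spearman's rho = 0.88 over 9 libraries, and r = 0.93 and rho = 0.83 over the 8 without Puberty 2, on a log2 scale. Gene by gene, r was positive for 7 of the 7 neuronal markers over 9 and over 8 libraries. With the summed astrocyte markers (8 genes, 4173 to 9880 FPKM) r was -0.91 over 9 and -0.94 over 8 libraries, but that sum was mostly GFAP and S100B, and the list did not move as one. For GFAP alone r was -0.90 over 9 libraries, whereas the glutamate transporters SLC1A2 (0.74) and SLC1A3 (0.57) went with P2RX5, and without GFAP and S100B the sum gave -0.07 over 9 and -0.51 over 8 libraries. With the other marker sums r over 9 and 8 libraries was -0.86 and -0.93 for endothelium, whose sum in Puberty 2 was mostly CLDN5, -0.75 and -0.89 for oligodendrocytes, and -0.60 and -0.62 for microglia. These are descriptions, among 35 pairs of a gene and a marker list, of values that share their libraries and their scaling. Neuronal markers were lowest in Puberty 2 (255), Prepuberty 1 (336) and Postpuberty 1 (412), which were also the 3 lowest libraries for P2RX5. The part of these differences in the results above was not tested.

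P2RX4 followed the microglial markers (10 genes, 124 to 625 FPKM) with r = 0.60 over 9 and 0.78 over 8 libraries (Spearman's rho 0.45 and 0.71). Singly r was positive for 10 and 9 of the 10, and over 8 libraries it ran from -0.07 for TMEM119 to 0.87 for C1QA. With the other sums r of P2RX4 over 8 libraries was 0.50 for endothelium, 0.48 for astrocytes, 0.21 for oligodendrocytes and -0.27 for neurons. For P2RX7, also known from microglia, r with the microglial markers was -0.29 over 9 and -0.25 over 8 libraries. For P2RX6 and the neuronal markers r was 0.84 over 8 libraries and 0.07 over 9, Puberty 2 being high in P2RX6 and low in neuronal markers. The sum of the 8 endothelial markers was 684 FPKM in Puberty 2 against 95.9 to 189 elsewhere, and CLDN5 alone gave 624 of the 684. PECAM1 (2.94), FLT1 (3.80), CDH5 (1.91) and TEK (1.67) were at their lowest of the 9 libraries there (4 of 8 markers), while VWF (19.95, against 6.07 to 18.1 elsewhere) and ESAM (28.3, against 10.3 to 18.9) were with CLDN5 at their highest (3 of 8), so the sum does not describe the list in that library. Without CLDN5 the sum was 59.3 FPKM in Puberty 2, within the 41.2 to 85.3 of the others, and its r was 0.02 with S1PR1 and 0.23 with SPHK2 over 9 libraries (0.02 and 0.62 over 8). The neuron, astrocyte, microglia and endothelium sums overlapped between the 3 stages.

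**Figure D5:**
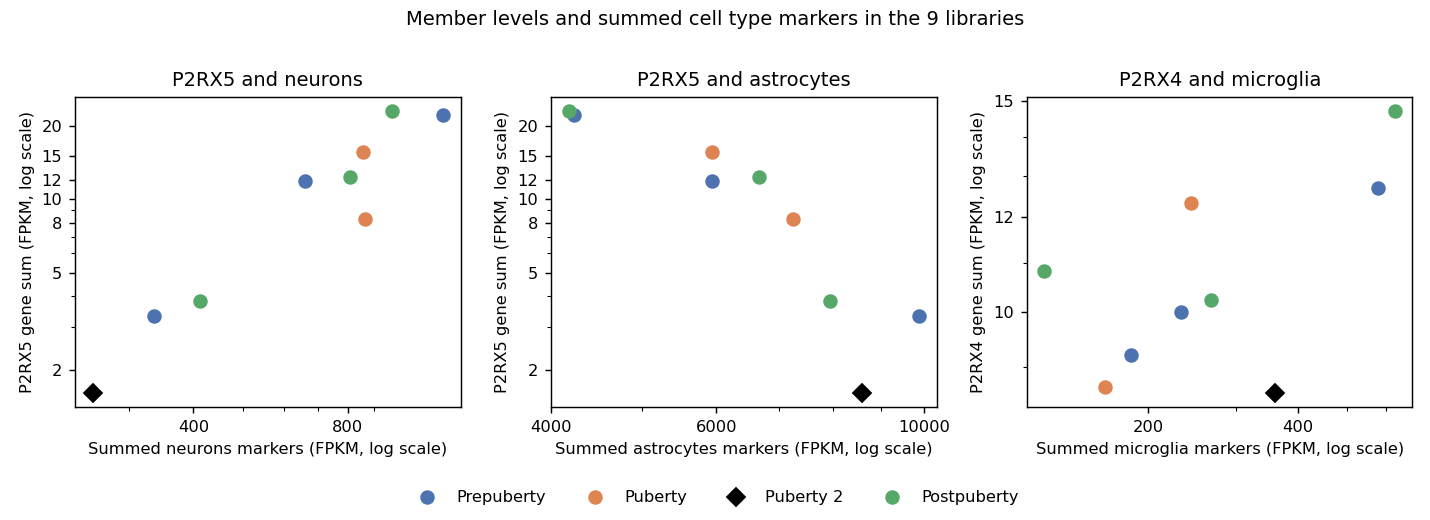
Gene sum of P2RX5 against the summed neuronal and the summed astrocyte markers, and of P2RX4 against the summed microglial markers (both axes FPKM on a log scale), 1 point per library coloured by stage, with Puberty 2 as a black diamond. P2RX5 rises with the neuronal sum (r = 0.96 over 9 libraries) and falls with the astrocyte sum (r = -0.91), which is mostly GFAP and S100B while SLC1A2 and SLC1A3 rise with P2RX5, and the 3 stages overlap in each panel.

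The genes most like each member over the 8 libraries without Puberty 2, among 12280 genes with a mean of at least 1 FPKM, were found by Pearson's r of log2(gene sum + 1). For P2RX5 they were SHC2 (r = 0.99), TMEM130 (0.99) and WBP2 (0.99), and with Puberty 2 these became 0.34, 0.92 and -0.14. For P2RX4 they were QARS1 (0.96), SNX17 (0.95) and C7H14orf119 (0.95), which became 0.56, 0.42 and 0.95. For P2RX6 they were DEXI (0.96), FXR2 (0.95) and PPP2R2B (0.95), with 0.87, 0.37 and 0.69 over 9 libraries, and for P2RX7 ITGA1 (0.94), ADAL (0.93) and LOC114118018 (0.92), with 0.77, 0.62 and 0.57. For SPHK1 they were GCA (0.97), EEF1AKMT2 (0.96) and LGALS1 (0.96), with 0.12, 0.98 and 0.96 over 9 libraries. For SPHK2 they were NINJ2 (0.97), LOC101113583 (0.97) and USP37 (0.95), with 0.97, -0.28 and -0.68 over 9, and for S1PR1 LOC101110758 (0.93), CORO1B (0.93) and ADGRF5 (0.91), with -0.03, -0.20 and 0.96. With 8 libraries and 12280 candidates, the highest values of r are those of a search.

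Among the other genes of purine signalling, the metabotropic receptors were led by P2RY12, a receptor for ADP that marks microglia. Its gene sum was 21.3, 9.18 and 19.8 FPKM at prepuberty, 14.9, 8.07 and 17.1 at puberty and 18.3, 5.60 and 6.85 at postpuberty. P2RY13 was next, at 3.88 ± 2.26 FPKM (n = 9). Of the 8 genes of this list with rows, 6 were tested and limma called 0. P2RY1 alone had an unadjusted p below 0.05, from prepuberty to puberty (difference 0.95, adjusted p = 0.838 in limma), with 0 FPKM in all prepuberty libraries and in Puberty 2, and 2.0 and 1.40 in Puberty 1 and 3. Without Puberty 2 the difference was 1.42 (adjusted p = 0.454 in limma), and P2RY1 then had an unadjusted p below 0.05 in all 3 comparisons. At postpuberty it was 0.442, 0.352 and 0.172 FPKM, so it passed the minimum of 0.5 FPKM through puberty alone. P2RY1 had to be high at puberty to be tested, so its p-values in the comparisons with puberty support nothing. The list of ATP release, nucleotide breakdown and adenosine (16 genes tested, 0 called, 0 at an unadjusted p below 0.05) was led by ENPP2, a secreted lysophospholipase D of the nucleotide pyrophosphatase family (106 ± 33.7 FPKM), and PANX2, a pannexin (40.6 ± 19.0 FPKM).

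Among the genes around S1P, S1PR1 exceeded each of the other receptors in every library. S1PR5, the receptor of oligodendrocytes, was next at 5.66 ± 2.44 FPKM (n = 9), and the S1P exporter SPNS2 was at 4.45 ± 1.30. S1PR5 was 8.10, 4.49 and 9.24 FPKM at prepuberty, 4.67, 1.30 and 4.01 at puberty and 7.84, 5.79 and 5.49 at postpuberty. Puberty 1 lay above Prepuberty 2, so the stages overlapped, and the difference from prepuberty to puberty was -0.99 (adjusted p = 0.838 in limma), the only one of 6 genes tested with an unadjusted p below 0.05. Without Puberty 2, its lowest library, the difference was -0.58 (adjusted p = 1 in limma) and did not have one, whereas S1PR2 then had one from prepuberty to postpuberty (difference 0.42, adjusted p = 1 in limma). S1PR2 was 3.23, 2.59 and 2.67 FPKM at prepuberty, 2.97, 1.89 and 3.11 at puberty and 4.06, 4.07 and 4.17 at postpuberty, so postpuberty lay above the other 6 libraries. Of all genes tested, 3.17% separated upwards from prepuberty to postpuberty. From puberty to postpuberty 5.25% did, and 7.93% without Puberty 2. Sphingolipid synthesis and breakdown (21 genes, 0 called by limma, 0 at an unadjusted p below 0.05) was led by CERS2, a ceramide synthase of very long chains (79.9 ± 19.0 FPKM), and PLPP3, a lipid phosphatase (47.0 ± 17.1 FPKM). Over the 21 genes the median difference was -0.28 from prepuberty to puberty, 0.22 from puberty to postpuberty and 0.07 from prepuberty to postpuberty, beside -0.14, 0.19 and 0.05 over all genes. Without Puberty 2 the medians of the 21 were 0.02, -0.06 and 0.07, beside 0.02, 0.03 and 0.05. SGPL1, the lyase that breaks down S1P, was then the 1 gene of the list with an unadjusted p below 0.05, from prepuberty to postpuberty (difference -1.48, adjusted p = 1 in limma). It was 8.45, 6.32 and 6.20 FPKM at prepuberty, 6.68, 0 and 5.30 at puberty and 3.17, 0 and 4.54 at postpuberty.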

How the data were processed

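RNA with poly-A tails from the hypothalamus of 9 ewes was sequenced, with 1 library per animal. According to the methods and the processing notes of the labels, the authors trimmed reads with Trimmomatic (version 0.32 in the notes), aligned them with HISAT2 to ARS-UI_Ramb_v3.0, and assembled, merged and quantified transcripts with StringTie. The deposited values are FPKM per transcript, although the table is described as raw counts, so the count test of the study (edgeR after RUVseq) could not be used. Read depth was not used here, and total FPKM is given in its place. StringTie divides reads among overlapping isoforms, so the FPKM of single isoforms of 1 gene depend on each other.

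RefSeq symbols (ARS-UI_Ramb_v3.0) matched 76682 of 76684 mRNA rows, and gene sums add the NM and XM rows. The 22600 transcripts that StringTie named were not assigned to genes. Sequences of the members were not used here. Stages were compared with limma 3.58.1 (R 4.3.3, variance trend, pseudocount 1, no scaling beyond FPKM). Python 3.11.15 with pandas 2.3.3, numpy 2.4.6, scipy 1.17.1 and matplotlib 3.10.9 did the rest. Named were the 9 members with their transcripts, and P2RX1 as the remaining P2X subunit. The called genes and the 2 highest genes of 4 pathway lists were named too. So were the 3 genes most like each member with a mean of at least 1 FPKM. P2RY1, S1PR2 and SGPL1, S1PR5 as a stage result, and the tissue markers were named after their values were seen. P2RY10 and ENTPD1, on the pathway lists, and GAD1 and FOLR1, on the marker lists, matched no row. The members and lists were chosen with earlier results of these data known. The script was tested on simulated data. Alternatives covered pseudocount, filter, scaling, replicate block, robust variance, fold minimum, noncoding rows and each library left out.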

Additional observations from a re-analysis of the deposited data

How the results depend on the processing

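Limma called 0 of the member genes tested (7, or 9 with no filter) and 0 of their transcripts in each of the 3 comparisons under every alternative run. In the main fit and without Puberty 2 it also called 0 of all genes and 0 of all transcripts. The 0 is therefore no result about the members. In the order of levels, 4 of the 8 neighbour pairs passed whichever library was left out. Of 399 fold changes of gene sums under alternatives, 375 kept their direction and 24 changed sign, 22 of them by leaving out 1 library. Many of the 399 could not change. The fold minimum, the filter, the replicate block, robust variance and noncoding rows leave the fold change of a member as it was. Leaving out a library of the stage not compared does so too. The 375 therefore overstate how stable the directions were. With equal totals the P2RX7 difference from prepuberty to puberty became -0.0638, and with a pseudocount of 0.1 the SPHK1 difference from prepuberty to postpuberty became 0.02. The cause was not tested.

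With each library left out in turn, the differences that changed sign ranged as follows on the log2 scale. From prepuberty to puberty P2RX4 ranged from -0.26 to 0.0172, P2RX5 from -1.22 to 0.19 and P2RX7 from -0.10 to 0.29. From puberty to postpuberty P2RX5 ranged from -0.10 to 1.28, P2RX7 from -0.46 to 0.0108 and S1PR1 from -0.10 to 0.55. From prepuberty to postpuberty P2RX4 ranged from -0.0025 to 0.27, P2RX5 from -0.58 to 0.72, P2RX6 from -0.0257 to 0.38, P2RX7 from -0.43 to 0.0831, SPHK1 from -0.56 to 0.23 and S1PR1 from -0.30 to 0.11.

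Same-numbered libraries of different stages did not deviate together as a rule (correlations of -0.32 to 0.52, 2 of 9 above 0.1, and 3 of 9 libraries best with their own number). The labels name no pairing of the ewes, and 3 libraries per stage are too few for this check to exclude one. With the replicate number as a block, limma called 0 genes and 0 transcripts of the members, as without it, where it called 0 of all genes and transcripts. The separation of stages and the pathway lists without Puberty 2 and the marker lists gene by gene were added after the data were seen. P2RX2 and P2RX3 were fitted only with no filter. The spread between 3 ewes per stage, the read depth, which was not used here, and the division of reads among isoforms limit what can be detected.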
